A study of Mus musculus with 9 samples.

Results

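The Ccdc genes, named for a coiled-coil domain in their proteins, were followed in RNA-seq of whole testes from 5 wild type and 4 Rfx2-/- mice. Members were chosen by name and by detection: every gene whose symbol in the GENCODE M21 annotation is Ccdc followed by a digit, with at least 10 counts summed over the 9 libraries. Of 23074 genes in the count table, 127 met this rule. Of the 136 Ccdc genes in the table, 8 were set aside by name (Ccdc39, Ccdc40, Ccdc42, Ccdc63, Ccdc65, Ccdc103, Ccdc114 and Ccdc151), and Ccdc121 had 2 counts in all. The members lie on 20 chromosomes, 3 of them on the X chromosome, and share a domain type and a naming scheme rather than a function.

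The comparison asked which testis mRNAs depend on RFX2. Both genotypes were on a mixed background of C57BL/6, 129/Sv and FVB/N, were taken at postnatal day 29 to 30 (P30), and gave 1 library per mouse from decapsulated testis. In Rfx2-/- mice, exon 7 of Rfx2, which encodes most of the DNA-binding domain, had been removed by Cre recombination, in a line made from 129/Sv embryonic stem cells and crossed to FVB/N mice with Cre driven by the ACTB promoter. No treatment was given to either genotype. The allele is constitutive and the tissue was whole testis, so that a lower level can come from fewer cells of a type or from less RNA per cell, and these cannot be told apart.

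A coiled coil is a pair or bundle of alpha helices wound around each other, and such proteins serve as spacers, rulers and scaffolds in axonemes, centrosomes and membrane tethers. Many Ccdc genes are most strongly expressed in testis, where round spermatids build a flagellum around a microtubule axoneme. RFX2 belongs to a family of transcription factors that recognise the X-box, an inverted repeat found in the promoters of many ciliary genes.

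Total counts lay between 13574764 and 15193330 in 8 libraries and were 28800855 in Rfx2-/- replicate 1, and every member had at least 1 count in each library. Levels are given as CPM, that is, counts scaled to a common library size with the TMM factor of each library. Rfx2 itself had 559.7, 551.5, 470.9, 540.7 and 623.8 CPM in the wild type libraries and 199.2, 61.5, 151.1 and 172.7 CPM in the Rfx2-/- libraries, so that no library went against its label. Its mean went from 549.3 ± 54.5 to 146.1 ± 59.8 CPM (mean ± SD, n = 5 and 4), with a log2 fold change of -1.91 (edgeR adjusted p = 0.000781). The count per gene does not separate the deleted exon from the rest. Rfx2-/- replicate 2 stood apart by gene length: on the log2 scale, its members with under 2 kb of exon differed from the other Rfx2-/- libraries by 0.65 and those with over 5 kb by -0.19 (medians of 32 and 20 members). Over all genes these differences were 0.57 and -0.64. Leaving this library out gave 11 members called lower (8.87%, against 4.01% of all genes), against 12 with it (9.68%, against 3.68%). Wild type replicate 3 was low across the members, with a median log2 difference of -0.16 from the wild type mean. Over all genes that median was -0.003, and the members had -0.01 to 0.08 in the other wild type libraries. In replicate 3, members under 2 kb and over 5 kb differed from the other wild type libraries by -0.20 and -0.17. Over all genes these differences were -0.11 and 0.07.

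Of the 127 members, 124 had enough counts to be tested. Calls required both a Benjamini-Hochberg adjusted p of 0.01 or less in edgeR and a change of more than 2-fold. There were 12 members called lower in Rfx2-/- testes, or 9.68% of those tested, against 3.68% of all 15613 genes tested. These were Ccdc110, Ccdc175, Ccdc24, Ccdc74a, Ccdc180, Ccdc105, Ccdc190, Ccdc146, Ccdc33, Ccdc57, Ccdc113 and Ccdc96, from the largest to the smallest change. In 7 of them the change exceeded 4-fold, and in 5 it lay between 2-fold and 4-fold. No member was called higher in edgeR (0 of 124, against 0.826% of all genes) or by the Wald test of DESeq2 (0 of 127, against 211 of all 20653 genes). Unadjusted edgeR p-values under 0.05 were found for 19 members that were higher and 26 that were lower. Shares of all genes at that limit were not computed. At an adjusted p at or under 0.05 with no fold limit, 21 members were lower (16.9%, against 7.31% of all genes) and 4 were higher (3.23%, against 3.48%). The 4 were Ccdc18, Ccdc93, Ccdc189 and Ccdc192.

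The median of the family lay close to that of all genes. The median log2 fold change over the 124 members was -0.01, against 0.03 over all genes tested, and 64 members (51.6%) lay below 0, against 46.9% of all genes. In 86 members the 95% interval of the change lay within 2-fold in both directions. All 4 Rfx2-/- libraries lay under all 5 wild type libraries in 21 members (16.9%, against 9.7% of all genes tested), and over them in 7 members (5.65%, against 6.16%). The spread was larger in Rfx2-/-, with a median coefficient of variation over the members of 0.238 against 0.133 in wild type. Counts of calls depended on the limits and on single libraries, over all genes as well as over the members. A test against a 2-fold change (glmTreat) gave 6 members lower (4.84%, against 1.74% of all genes). Leaving out Rfx2-/- replicate 4 gave 8 (6.45%, against 2.84%). Scaling by library totals alone moved the median of all genes from 0.03 to 0.16. It gave 9 members lower (7.26%, against 3.09% of all genes) and 2 higher, against 191 of all 15613 genes.

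**Figure D1:**
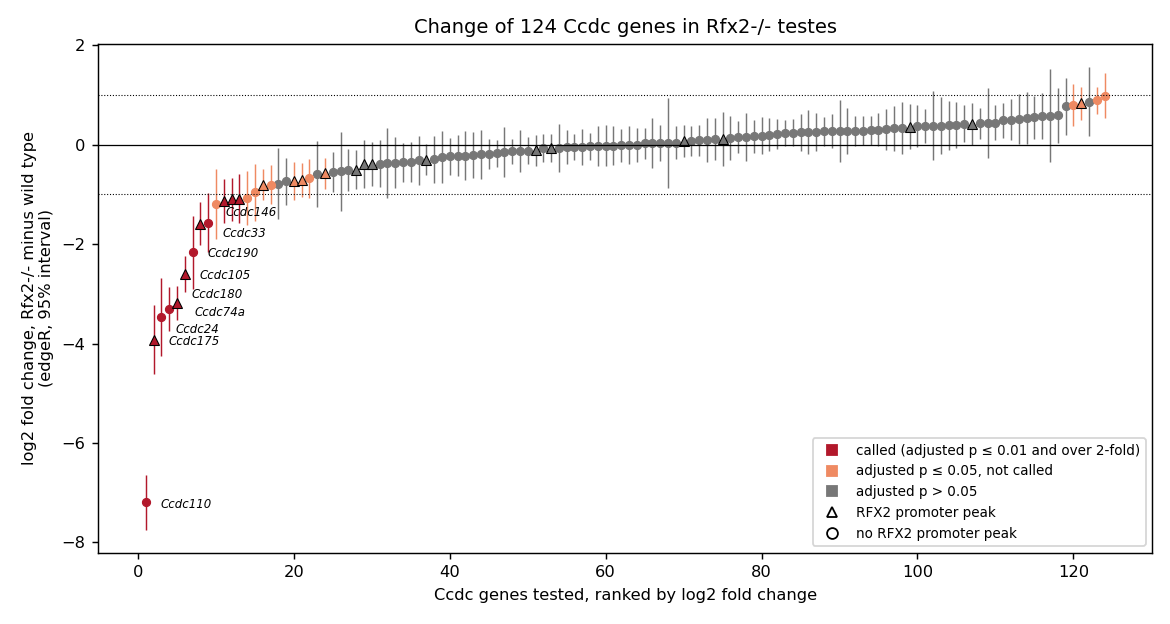
Each point is a Ccdc gene tested, placed on the horizontal axis by rank and on the vertical axis by its log2 fold change in Rfx2-/- minus wild type, with the 95% interval of the edgeR fit as a line and dotted lines at a 2-fold change. The 12 called genes (dark red) lie at the left between -7.19 and -1.08, most of the 124 genes lie between the dotted lines, and triangles mark genes with an RFX2 promoter peak.

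Promoters of 22 members, all of them tested, carried an RFX2 peak in the study's chromatin immunoprecipitation of germ cells from younger wild type mice, an assay that does not use these libraries. That was 22 of 124 members tested, against 953 of all 15613 genes tested, and this difference was not tested. Of these 22 members, 7 (31.8%) were called lower, namely Ccdc175, Ccdc180, Ccdc105, Ccdc146, Ccdc57, Ccdc113 and Ccdc96, and their median log2 fold change was -0.54. Of the 102 members tested without a peak, 5 (4.90%) were called lower, and the median was 0.04. Over all genes the corresponding shares were 11.1% of 953 genes with a peak, with a median of -0.18, and 3.20% of 14660 genes without, with a median of 0.04. No test of these differences was run. The count with a peak was 4 (18.2%) when wild type replicate 5, Rfx2-/- replicate 3 or Rfx2-/- replicate 4 was left out, where the count without a peak was 5, 5 and 4. Of all genes with a peak, 9.03%, 8.80% and 9.32% were called lower in these cases, in the same order. The gene with the largest change, Ccdc110, had no promoter peak, nor did Ccdc24, Ccdc74a, Ccdc190 or Ccdc33.

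Promoter windows of 300 bases, from 250 before to 50 after the transcription start, were available from RefSeq (GRCm38.p6) for 105 of the 127 members. They were searched for the X-box spelled GTTNCCATGGNAAC, which reads the same on both strands, allowing 2 mismatches in its 12 defined letters. A match was present for 13 members (12.4%), against 3.99% of all genes, 4.56% of all genes tested and 3.50% of all promoter windows. Among members with an RFX2 peak it was 10 of 18 (55.6%, against 33.6% of all genes tested with a peak), and among members without a peak it was 3 of 87 (3.45%). The share over all genes without a peak was not computed. No member had an exact match and 3 had at most 1 mismatch, Ccdc175, Ccdc181 and Ccdc184. Of the members with a peak, a match was found in 3 of 6 called lower and in 7 of 12 not called. A match is a run of letters in this window and no measure of binding.

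The windows below show the closest run of 14 bases to the motif in capitals, with up to 20 bases on each side, in the direction of transcription. The first 3 belong to members that were called lower and had both a peak and a match.
Ccdc175 (chr12:72185010-72185063, minus strand): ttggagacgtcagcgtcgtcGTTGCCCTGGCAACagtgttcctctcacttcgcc
Ccdc180 (chr4:45890283-45890336, plus strand): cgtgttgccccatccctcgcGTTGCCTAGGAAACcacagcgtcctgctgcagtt
Ccdc57 (chr11:120932830-120932883, minus strand): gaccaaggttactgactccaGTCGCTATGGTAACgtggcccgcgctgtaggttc
The next 3 belong to members called lower with a peak, whose closest run had 3 mismatches and so was not a match.
Ccdc105 (chr10:78753066-78753119, minus strand): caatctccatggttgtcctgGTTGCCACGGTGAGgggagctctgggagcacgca
Ccdc113 (chr8:95534066-95534119, plus strand): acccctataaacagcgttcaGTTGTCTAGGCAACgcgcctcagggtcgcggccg
Ccdc96 (chr5:36484569-36484622, plus strand): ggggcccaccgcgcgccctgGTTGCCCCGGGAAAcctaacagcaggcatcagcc
The next 2 belong to members called lower without a peak, of which Ccdc74a had a match with 2 mismatches and Ccdc110 had none, its closest run having 4 mismatches.
Ccdc74a (chr16:17646444-17646497, plus strand): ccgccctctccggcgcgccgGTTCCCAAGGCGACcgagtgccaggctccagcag
Ccdc110 (chr8:45934445-45934498, plus strand): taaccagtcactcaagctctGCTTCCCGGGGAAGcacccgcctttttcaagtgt
The last 3 belong to members with both a peak and a match that were not called.
Ccdc184 (chr15:98167744-98167797, plus strand): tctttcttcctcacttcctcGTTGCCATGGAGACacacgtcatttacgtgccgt
Ccdc181 (chr1:164275604-164275647, plus strand): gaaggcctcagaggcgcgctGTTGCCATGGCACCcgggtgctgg
Ccdc30 (chr4:119415478-119415531, minus strand): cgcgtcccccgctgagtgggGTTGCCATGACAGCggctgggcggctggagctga

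Genes of the sperm flagellum and motile cilia formed the role with the most calls. Roles were assigned from general knowledge, with earlier results of these data known, to 60 of the 127 members, and the remaining 67 were not grouped. Shares by role are therefore a description, and differences between roles were not tested. Members of this role are called flagellar below, although it also covers motile cilia, and the location of their proteins was not checked. Of the 14 flagellar members tested, 5 (35.7%, against 3.68% of all genes tested) were called lower, and the median log2 fold change was -0.39. With an adjusted p up to 0.05, 7 of the 14 lay lower (against 7.31% of all genes) and 1 higher (7.14%, against 3.48%). The count called was 3 without wild type replicate 5 or Rfx2-/- replicate 3 and 2 without Rfx2-/- replicate 4.

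Ccdc105 (ENSMUSG00000078442, chr10:78746926-78753065, minus strand), which encodes a tektin-like protein inside the doublet microtubules of sperm, had the largest change of this role. It had 144.4, 131.7, 90.6, 129.1 and 141.5 CPM in the 5 wild type libraries and 22.6, 19.2, 21.1 and 21.3 CPM in the 4 Rfx2-/- libraries. The 4 Rfx2-/- values lay close together and all below the wild type range, in which replicate 3 was the lowest. The mean went from 127.5 ± 21.6 to 21 ± 1.4 CPM (mean ± SD, n = 5 and 4), or 16.5% of wild type (log2 fold change -2.60, SE 0.17, edgeR adjusted p = 5.72e-07).

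Ccdc146 (ENSMUSG00000064280, chr5:21292961-21424677, minus strand) encodes a protein of centrioles and axonemal microtubules that the sperm flagellum needs. It had 99.9, 107.9, 87.1, 131.0 and 109.3 CPM in the 5 wild type libraries and 49.9, 27.3, 29.5 and 35.2 CPM in the 4 Rfx2-/- libraries. Rfx2-/- replicate 1 was the highest of its group and still below every wild type library. Its mean level moved from 107.1 ± 16 to 35.5 ± 10.2 CPM (mean ± SD, n = 5 and 4) (log2 fold change -1.59, SE 0.20, edgeR adjusted p = 0.00019).

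Ccdc33 (ENSMUSG00000037716, chr9:58028677-58118823, minus strand), expressed mainly in testis, had 147.3, 156.1, 95.1, 155.3 and 173.6 CPM in the 5 wild type libraries and 63.9, 23.3, 57.5 and 51.4 CPM in the 4 Rfx2-/- libraries. The groups did not overlap, and Rfx2-/- replicate 2 was well below the others of its group. On average it went from 145.5 ± 29.7 to 49 ± 17.9 CPM (mean ± SD, n = 5 and 4) (log2 fold change -1.57, SE 0.27, edgeR adjusted p = 0.00253). The call was lost without Rfx2-/- replicate 4 (edgeR adjusted p = 0.0133) and in the glmTreat test against a 2-fold change (adjusted p = 0.231).

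Ccdc113 and Ccdc96 encode partners in 1 axonemal complex at the base of a radial spoke, and both were close to the 2-fold limit. Ccdc113 (ENSMUSG00000036598, chr8:95534085-95558890, plus strand) had 195.0, 196.9, 167.3, 203.5 and 239.4 CPM in the 5 wild type libraries and 82.9, 127.7, 64.4 and 98.5 CPM in the 4 Rfx2-/- libraries. Ccdc96 (ENSMUSG00000050677, chr5:36484588-36488172, plus strand) had 303.2, 308.4, 259.9, 349.4 and 357.4 CPM in the 5 wild type libraries and 188.8, 80.2, 146.8 and 179.8 CPM in the 4 Rfx2-/- libraries. In both genes the groups did not overlap, but Rfx2-/- replicate 2 was the highest of its group for Ccdc113, which has 1288 bases of exon, and the lowest for Ccdc96, which has 3585. Ccdc113 went from 200.4 ± 25.8 to 93.4 ± 26.8 CPM (mean ± SD, n = 5 and 4), with a log2 difference of -1.10 (SE 0.20, adjusted p = 0.00292 in edgeR). Ccdc96 went from 315.6 ± 39.4 to 148.9 ± 49.3 CPM (mean ± SD, n = 5 and 4), with a log2 difference of -1.08 (SE 0.23, adjusted p = 0.00899 in edgeR). Leaving out 1 library ended the call of Ccdc96 in 8 of 9 cases, the exception being Rfx2-/- replicate 1, and that of Ccdc113 when wild type replicate 5, Rfx2-/- replicate 3 or Rfx2-/- replicate 4 was left out.

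The other flagellar members were not called. Ccdc81 had a log2 fold change of -0.71 (95% interval -1.05 to -0.37, edgeR adjusted p = 0.0115). Ccdc181, which encodes a microtubule-binding flagellar protein, had a log2 fold change of -0.58 (95% interval -0.90 to -0.26, edgeR adjusted p = 0.0243). In both, every Rfx2-/- library was lower than any wild type library. Ccdc189, which encodes a radial spoke protein, moved the other way. It had 128.2, 132.3, 105.1, 123.6 and 141.5 CPM in the 5 wild type libraries and 244.0, 175.2, 219.2 and 261.6 CPM in the 4 Rfx2-/- libraries. These groups did not overlap either, and the log2 fold change was 0.84 (95% interval 0.51 to 1.17, edgeR adjusted p = 0.0033), short of 2-fold. On the opposite strand, 30.1% of the exon bases of Ccdc189 overlap Phkg2, whose mean was 700.1 CPM in wild type against 503.4 CPM without Rfx2 (edgeR adjusted p = 0.0933). The methods exclude reads that overlap exons of different genes, and whether strand was used in this step is not given. The remaining flagellar members had log2 fold changes (95% interval) of 0.42 (0.00 to 0.85) for Ccdc13, 0.37 (-0.05 to 0.79) for Ccdc38 and 0.36 (-0.09 to 0.82) for Ccdc34. Ccdc172, Ccdc173 and Ccdc78 had 0.44 (0.08 to 0.80), -0.14 (-0.56 to 0.29) and -0.21 (-0.67 to 0.26), and none of the 6 passed an adjusted p of 0.05.

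**Figure D2:**
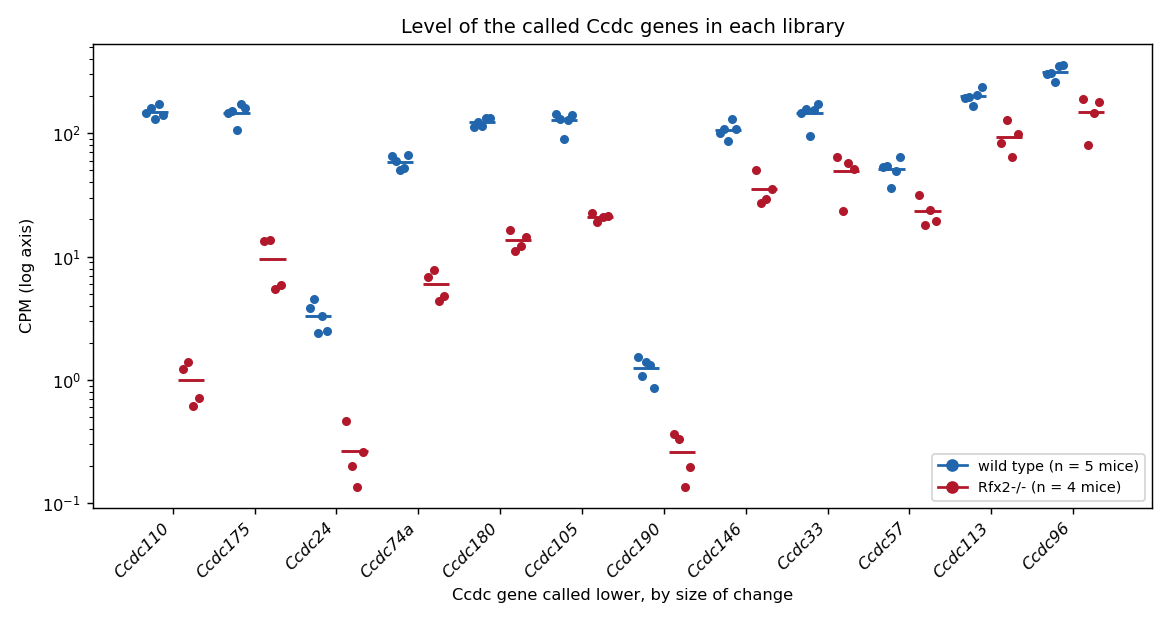
Level of each of the 12 Ccdc genes called lower, in CPM on a log axis, with 1 point per mouse (5 wild type in blue, 4 Rfx2-/- in red) and a bar at the group mean. In each gene the red points lie below all blue points, from a mean of 0.991 CPM against 149.6 CPM in Ccdc110 to 148.9 CPM against 315.6 CPM in Ccdc96.

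Centrosomal members build or surround the centrioles from which a flagellum grows. Among the 9 tested, Ccdc57 was called lower (1 of 9, or 11.1%, against 3.68% of all genes tested). Ccdc18 was the member with the largest positive change. Ccdc57 (ENSMUSG00000048445, chr11:120826529-120932872, minus strand), which encodes a centrosomal and centriolar satellite protein, had 53.2, 54.1, 35.8, 49.8 and 63.8 CPM in the 5 wild type libraries and 31.6, 18, 23.9 and 19.5 CPM in the 4 Rfx2-/- libraries. The lowest wild type library lay just above the highest Rfx2-/- library. Group means went from 51.3 ± 10.1 to 23.3 ± 6.13 CPM (mean ± SD, n = 5 and 4) (log2 fold change -1.14, SE 0.21, edgeR adjusted p = 0.00316), and the call was lost without wild type replicate 1, 2 or 5 or without Rfx2-/- replicate 3 or 4. Ccdc18 (ENSMUSG00000056531, chr5:108132875-108233628, plus strand), a centriolar satellite gene, had 38.8, 32.8, 26.2, 40.7 and 34.3 CPM in the 5 wild type libraries and 59.4, 102.6, 54.5 and 57.2 CPM in the 4 Rfx2-/- libraries. All 4 Rfx2-/- values were above the wild type range, with replicate 2 far above the other 3, and the log2 fold change was 0.98 (95% interval 0.54 to 1.43, edgeR adjusted p = 0.00844), just under 2-fold. Without Rfx2-/- replicate 1 or 3 Ccdc18 was called higher, and over all settings its log2 fold change ran from 0.72 to 1.16. The other 7 centrosomal members had changes of -0.54 (Ccdc68) to 0.27 (Ccdc66) and did not pass an adjusted p of 0.05.

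The members of the acrosome and sperm head, Ccdc136, Ccdc87, Ccdc188 and Ccdc62, all had negative fold changes, of -0.59 to -0.15 on the log2 scale, against 46.9% of all genes below 0. An adjusted p of 0.05 was passed by 0 of 4, against 7.31% of all genes lower and 3.48% higher at that limit. Ccdc136, needed for the acrosome, was the member with the highest level per length in wild type testes. It had 1813, 1966, 1676, 2085 and 2199 CPM in the 5 wild type libraries and 1877, 855.0, 1504 and 1738 CPM in the 4 Rfx2-/- libraries, where Rfx2-/- replicate 2 was the lowest of all 9 and the groups overlapped. Its log2 fold change was -0.38 (95% interval -0.85 to 0.08, edgeR adjusted p = 0.265). The meiotic members Ccdc155, which encodes the KASH5 protein that tethers telomeres to the nuclear envelope, and Ccdc36, a meiotic recombination gene, had -0.14 (-0.39 to 0.12) and -0.17 (-0.45 to 0.10), with intervals inside 2-fold.

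Members with housekeeping roles included no call, against 3.68% of all genes called lower and 0.826% called higher. Of 10 genes for membrane traffic, the endoplasmic reticulum and mitochondria, 9 had a positive fold change, their median was 0.36 in log2 units, and 1 passed an adjusted p of 0.05. This was Ccdc93, a subunit with Ccdc22 of an endosomal recycling complex, with 33.9, 37.5, 37.2, 40.8 and 34.9 CPM in the 5 wild type libraries and 63.8, 78.1, 60.2 and 71 CPM in the 4 Rfx2-/- libraries. The groups were far apart, and the mean went from 36.9 ± 2.65 to 68.3 ± 7.95 CPM (mean ± SD, n = 5 and 4) (log2 fold change 0.89, 95% interval 0.61 to 1.16, edgeR adjusted p = 0.000549). Ccdc22 itself had 0.28 (-0.18 to 0.74). Scaling by library totals alone, or removing from each library the trend of its levels with exon length, gave Ccdc93 as called higher.

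Of 8 genes for RNA splicing, the nucleolus and ribosomes, with a median of 0.25, Ccdc86 alone passed an adjusted p of 0.05 (12.5% lower, against 7.31% of all genes). Ccdc86, a nucleolar gene, had 42.7, 42.3, 34.1, 35.5 and 39.1 CPM in the 5 wild type libraries and 27.2, 8.56, 22.6 and 20.9 CPM in the 4 Rfx2-/- libraries and lay in every Rfx2-/- library below the wild type range (log2 fold change -0.96, 95% interval -1.53 to -0.39, edgeR adjusted p = 0.0347). Of 12 genes for signalling, the cytoskeleton and matrix tested, with a median of 0.00, none passed (against 7.31% of all genes lower and 3.48% higher). Among them Ccdc88a, which encodes the actin-binding protein girdin, had 0.08 (-0.22 to 0.37). Among the 65 members tested without an assigned role, 6 were called lower (9.23%, against 3.68% of all genes), and the median was -0.01. With an adjusted p up to 0.05, 12 of them lay lower (18.5%, against 7.31%) and 1 higher (1.54%, against 3.48%).

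**Figure D3:**
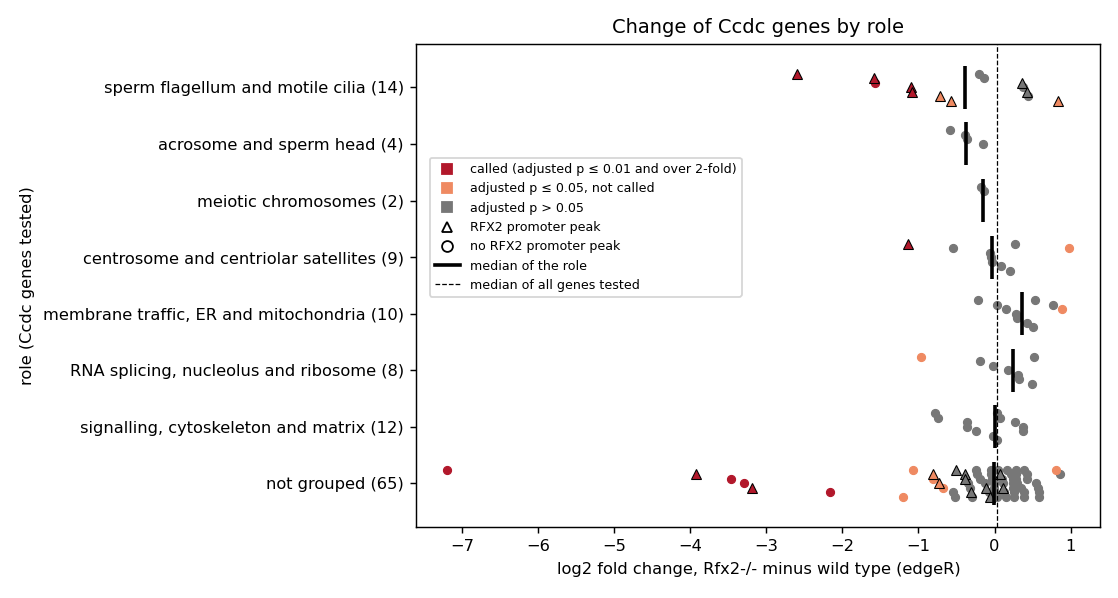
Log2 fold change in Rfx2-/- minus wild type of each Ccdc gene tested (points, triangles where the promoter has an RFX2 peak) in rows by assigned role, with a bar at the median of each role and a dashed line at the median of all genes tested, 0.03. Called genes (dark red) lie in the flagellar, centrosomal and ungrouped rows, and the medians run from -0.39 for flagellar genes to 0.36 for membrane traffic genes.

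The 6 ungrouped members called lower included the 5 largest changes among the members tested, which leave out the Ccdc genes set aside by name. Ccdc110 (ENSMUSG00000071104, chr8:45934619-45944145, plus strand), known in humans as a cancer/testis antigen gene, had 145.9, 159.1, 129.8, 172.3 and 141.0 CPM in the 5 wild type libraries and 1.23, 1.4, 0.613 and 0.72 CPM in the 4 Rfx2-/- libraries. These values rest on 1808 to 2336 counts per wild type library and 9 to 37 per Rfx2-/- library. The mean went from 149.6 ± 16.5 to 0.991 ± 0.384 CPM (mean ± SD, n = 5 and 4), or 0.663% of wild type (log2 fold change -7.19, SE 0.25, edgeR adjusted p = 5.28e-09), and the gene stayed called under each of the 17 alternative settings, between -7.33 and -7.00.

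Ccdc175 (ENSMUSG00000021086, chr12:72101300-72185029, minus strand) had 146.8, 150.3, 106.2, 171.8 and 159.1 CPM in the 5 wild type libraries and 13.5, 13.6, 5.45 and 5.89 CPM in the 4 Rfx2-/- libraries. Within Rfx2-/-, replicates 1 and 2 were above replicates 3 and 4, but all 4 were far under the wild type range. Its mean level moved from 146.9 ± 24.7 to 9.62 ± 4.56 CPM (mean ± SD, n = 5 and 4) (log2 fold change -3.92, SE 0.32, edgeR adjusted p = 4.77e-06).

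Ccdc74a (ENSMUSG00000041617, chr16:17646470-17650738, plus strand) had 64.8, 59.7, 50.5, 52.7 and 66.4 CPM in the 5 wild type libraries and 6.84, 7.82, 4.36 and 4.78 CPM in the 4 Rfx2-/- libraries, again without overlap. On average it went from 58.8 ± 7.1 to 5.95 ± 1.65 CPM (mean ± SD, n = 5 and 4) (log2 fold change -3.30, SE 0.20, edgeR adjusted p = 4.03e-07). Ccdc180 (ENSMUSG00000035539, chr4:45890303-45950774, plus strand) had 113.0, 122.5, 115.4, 133.4 and 133.6 CPM in the 5 wild type libraries and 16.5, 11.1, 12.3 and 14.3 CPM in the 4 Rfx2-/- libraries, also without overlap. Group means went from 123.6 ± 9.71 to 13.5 ± 2.38 CPM (mean ± SD, n = 5 and 4) (log2 fold change -3.18, SE 0.16, edgeR adjusted p = 7.81e-08).

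Ccdc24 and Ccdc190 were low in both genotypes. Ccdc24 (ENSMUSG00000078588, chr4:117866524-117872557, minus strand) had 3.82, 4.49, 2.39, 3.32 and 2.5 CPM in the 5 wild type libraries and 0.465, 0.201, 0.136 and 0.262 CPM in the 4 Rfx2-/- libraries, from 32 to 58 counts in wild type and 14, 3, 2 and 4 counts in Rfx2-/-, so that 2 of the 4 knockout libraries were at or under the floor of 3 counts. Its mean went from 3.3 ± 0.889 to 0.266 ± 0.142 CPM (mean ± SD, n = 5 and 4) (log2 fold change -3.47, SE 0.36, edgeR adjusted p = 3.69e-05). Ccdc190 (ENSMUSG00000070532, chr1:169928648-169934653, plus strand) had 1.53, 1.08, 1.4, 1.33 and 0.858 CPM in the 5 wild type libraries and 0.365, 0.334, 0.136 and 0.196 CPM in the 4 Rfx2-/- libraries, from 11 to 21 counts and from 2 to 11 counts. For Ccdc190, Rfx2-/- replicates 3 and 4 were at or under that floor, and the mean went from 1.24 ± 0.267 to 0.258 ± 0.109 CPM (mean ± SD, n = 5 and 4) (log2 fold change -2.16, SE 0.34, edgeR adjusted p = 0.00113). Both overlap a gene on the opposite strand, Ccdc24 over 33.8% of its exon bases with Slc6a9 and Ccdc190 over 35.8% with Gm15852. Of the 50-base stretches in Ccdc24 transcripts, 56.3% also occurred in transcripts of other genes, Slc6a9 foremost. For Slc6a9 the means were 6.24 CPM in wild type against 4.19 CPM without Rfx2 (edgeR adjusted p = 0.0645), and whether reads of these pairs were separated by strand is not given in the sources used here. Of 86 members tested with under 5% of exon overlap and of shared sequence, 8 were called lower (9.30%, against 3.68% of all genes).

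Around the 2-fold limit, the called members Ccdc57, Ccdc113 and Ccdc96 stood beside 2 members of more than 2-fold change that missed the limit of 0.01 on the adjusted p. Ccdc187 had 170.2, 192.7, 88.9, 172.3 and 192.3 CPM in the 5 wild type libraries and 96.3, 50.01, 85.3 and 77.7 CPM in the 4 Rfx2-/- libraries. Wild type replicate 3 fell within the Rfx2-/- range, and the log2 fold change was -1.08 (95% interval -1.62 to -0.54, edgeR adjusted p = 0.0146). It was called lower by the Wald test of DESeq2 (adjusted p = 0.000401) and, in edgeR, without wild type replicate 3 (-1.19, adjusted p = 0.00272). Ccdc92b, a low gene, had 3.98, 1.94, 2.93, 2.58 and 1.33 CPM in the 5 wild type libraries and 1.36, 0.736, 1.23 and 1.05 CPM in the 4 Rfx2-/- libraries, with wild type replicate 5 inside the Rfx2-/- range (log2 fold change -1.20, 95% interval -1.90 to -0.49, edgeR adjusted p = 0.0338). Ccdc148, Ccdc27, Ccdc60 and Ccdc150 were lower at an adjusted p of 0.05 with changes under 2-fold, of -0.81 (-1.12 to -0.49), -0.80 (-1.20 to -0.41), -0.73 (-1.12 to -0.35) and -0.68 (-1.07 to -0.28) on the log2 scale. Ccdc192 was higher at that limit. It had 80.6, 105.8, 69, 104.5 and 97.5 CPM in the 5 wild type libraries and 133.3, 216.2, 124.1 and 164.5 CPM in the 4 Rfx2-/- libraries, without overlap between the groups (log2 fold change 0.80, 95% interval 0.38 to 1.22, edgeR adjusted p = 0.0186).

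The members with an RFX2 promoter peak that did not pass an adjusted p of 0.05 were Ccdc191, Ccdc126, Ccdc184, Ccdc138, Ccdc157, Ccdc158, Ccdc30 and Ccdc107, beside the flagellar Ccdc34 and Ccdc13. On the log2 scale the first 4 had -0.50 (-0.90 to -0.11), -0.39 (-0.87 to 0.09), -0.39 (-0.82 to 0.05) and -0.30 (-0.61 to 0.00). Ccdc157, Ccdc158, Ccdc30 and Ccdc107 had -0.12 (-0.43 to 0.20), -0.07 (-0.35 to 0.22), 0.08 (-0.24 to 0.39) and 0.12 (-0.43 to 0.66). All 8 intervals lay within a 2-fold change.

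Levels of different genes were compared per kb of exon. Over the 124 members tested, wild type levels ranged from 0.116 to 457.9 CPM per kb with a median of 14.6, against a median of 6.41 over all genes tested, and 61.3% of members had at least 10 CPM per kb, against 40.0% of all genes. In wild type testes (mean ± SD, n = 5), Ccdc136 had 457.9 ± 49.1 CPM per kb, Ccdc92 264.6 ± 45.1, Ccdc181 238.3 ± 27.3, Ccdc54 160.3 ± 36.8 and Ccdc91 159.6 ± 36.7. The next 5 were Ccdc60 with 156.5 ± 16, Ccdc113 with 155.6 ± 20.05, Ccdc38 with 150.5 ± 22.5, Ccdc30 with 105.0 ± 11.3 and Ccdc89 with 101.5 ± 16 CPM per kb. Only 3 of these 9 steps between neighbours exceeded the larger SD of the pair: Ccdc136 over Ccdc92, Ccdc181 over Ccdc54 and Ccdc38 over Ccdc30. Of these 10 genes Ccdc113 was called. Ccdc92, which encodes a centriole-associated protein, had -0.23 (-0.64 to 0.18), and Ccdc54, Ccdc91 and Ccdc89 had -0.32 (-0.81 to 0.17), -0.22 (-0.71 to 0.27) and 0.04 (-0.29 to 0.37).

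Called members lay mostly at the higher levels, a difference that was not tested. Of 76 members with at least 10 CPM per kb in wild type, 10 were called lower (13.2%, against 3.83% of all such genes), and of 48 members tested below that level 2 were (4.17%, against 3.60%), Ccdc24 and Ccdc190. The called members had 0.714 to 155.6 CPM per kb in wild type, with a median of 41.5. The 3 members not tested, Ccdc125, Ccdc153 and Ccdc85a, had 43 to 85 counts over all 9 libraries.

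**Figure D4:**
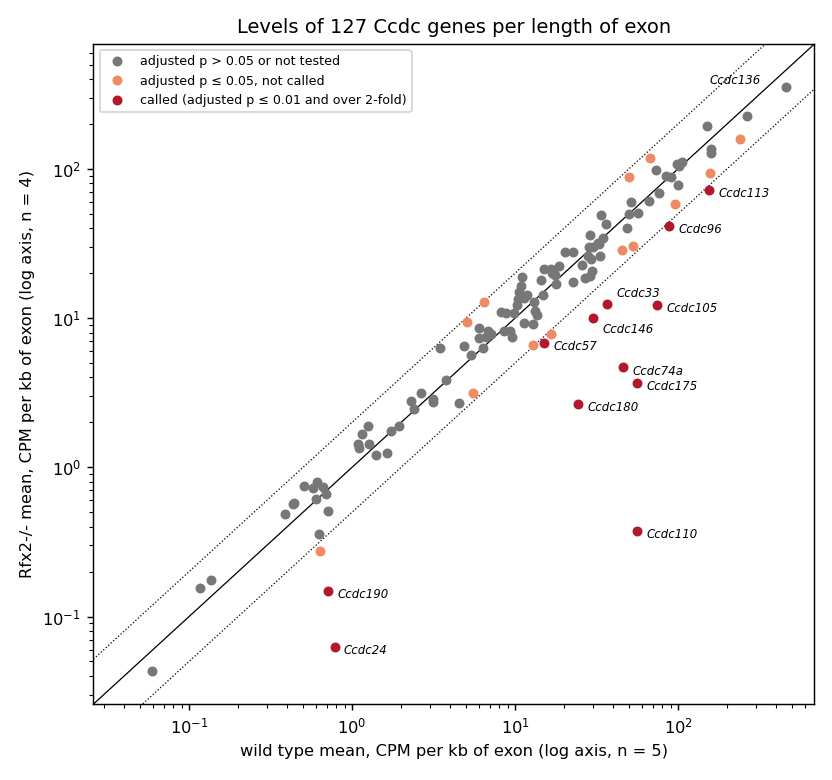
Mean level of each of the 127 Ccdc genes in CPM per kb of exon, wild type on the horizontal and Rfx2-/- on the vertical log axis, with a solid line at equal levels and dotted lines at a 2-fold difference. Most genes lie between the dotted lines over the whole range of levels, and the 12 called genes (dark red) lie below it or at its lower edge, Ccdc110 farthest.

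Genes that share the history or the name of the family were set beside it. A list of genes taken to have had a Ccdc name was written from general knowledge, with earlier results of these data known. Of its 18 genes tested, 4 were called lower (22.2%, against 3.68% of all genes tested), with a median of -0.20. These were Drc1, which fell from 167.7 to 2.24 CPM, Drc7, from 130.3 to 4.86 CPM, Cfap53, from 121.1 to 4.70 CPM, and Cfap45, from 284.7 to 81.5 CPM, all axonemal genes. Former names were not checked, and some listed genes, such as Cfap57, Vps51 and Ska3, may never have had a Ccdc name. Of the 8 Ccdc genes set aside by name, 3 were called lower (37.5%, against 3.68% of all genes tested), with a median of -0.55: Ccdc42 (117.1 to 0.883 CPM), Ccdc40 (234.3 to 16.0 CPM) and Ccdc65 (290.6 to 36.4 CPM). Of 53 Lrrc genes tested, another family named for a repeated motif, 5 were called lower (9.43%, against 3.68% of all genes tested) and 0 higher in edgeR, with a median of -0.20. No test of a difference between these lists and the members was run.

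Markers of testis cell types were measured beside these results. All 11 elongating spermatid markers had negative fold changes, with a median of -0.74 and 5 at an adjusted p of 0.05 or less, and their summed level was 8702 to 18507 CPM in wild type and 6936 to 11249 CPM in Rfx2-/- libraries. Of 8 meiotic prophase markers, 7 had positive fold changes, with a median of 0.65 and summed levels of 1635 to 2040 and 2035 to 3681 CPM. The 8 round spermatid markers had a median of 0.26 and overlapping sums of 1267 to 2039 and 1425 to 1900 CPM. Medians were 0.07 for 8 spermatogonial, 0.12 for 8 Sertoli cell, 0.19 for 7 Leydig cell, -0.01 for 5 peritubular and 0.38 for 7 macrophage markers, with overlapping sums. Of 5 markers of multiciliated epithelium, 3 were at or under 3 counts in every library and Foxj1 alone had enough counts to be tested. The part of cell composition in the changes of the Ccdc genes was not tested.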

How the data were processed

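RNA-seq was done on 9 decapsulated testes, with 1 library per mouse. The authors deposited raw counts per gene as whole numbers, without normalisation. The methods describe single reads mapped to GRCm38 in more than 1 way, with differing read lengths, in one passage with Bowtie and in another with STAR followed by featureCounts over exons, and keep only uniquely mapped reads in both. The submitters' processing notes for these libraries name CASAVA 1.8.2, STAR 2.4 and featureCounts 1.4.6, so the counts were taken to come from STAR and featureCounts. Use of strand is not given in the sources used here. In the passage with featureCounts, reads that overlap exons of different genes were excluded, and reads from near-identical copies are lost when only unique mappings are kept. Levels per kb divide by all exon bases, so that they can be too low for overlapping genes.

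Groups were taken from the genotype labels. Gene names and positions came from GENCODE M21 (GRCm38), which named 96.6% of the 23074 genes, and promoter sequences came from RefSeq (GRCm38.p6) through Entrez gene IDs. Whether a promoter had an RFX2 peak was taken as membership of the study's list of 977 genes, from germ cells of another age.

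The genotypes were compared in edgeR 4.0.16 (R 4.3.3) by its quasi-likelihood test (TMM factors, filterByExpr, robust dispersions). Genotype was the single factor, and p-values were adjusted by Benjamini-Hochberg over 15613 genes. Intervals are 95%. The study's limits of p 0.01 and 2-fold were applied to the adjusted p. The floor of 3 counts, the 95% limit that a count of 0 allows, corresponded to 0.0996 CPM in Rfx2-/- replicate 1 and 0.196 to 0.234 CPM in the other libraries, and covers counting error only. The procedure was tested on simulated data. A chi-square comparison of libraries of 1 genotype gave at least 4.52 per gene, so none was a repeat of another. The labels number the mice, and p-values measure the spread between these mice.

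The members, the role lists, the marker lists and the tests were chosen with earlier results of these data known. Members were named if called, if at an adjusted p of 0.05 or less, if their promoter had a peak, if among the 10 highest per kb of exon, or if within 0.3 of the 2-fold limit on the log2 scale at that adjusted p. A few others are named as examples of a role, and were chosen after their values were seen. Alternatives were other scalings, filters, limits and tools (DESeq2 1.42.0), removal of the length trend, and omission of each library.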

Additional observations from a re-analysis of the deposited data

Results flagged for a closer look

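Values of the 41 named members and of Rfx2 were compared among the libraries of each genotype, and a library was singled out when its gap to the nearest other library, relative to the range of the group, exceeded the 95% limit of Dixon's test for groups of 5 or 4. This held for 5 of 84 groups of values, and chance alone would single out about 4.2, or about 1 in 20. For Ccdc105, wild type replicate 3 had 90.6 CPM and the other wild type libraries 129.1 to 144.4 CPM. Ccdc187 had 88.9 CPM in the same library, against 170.2 to 192.7 CPM. In Rfx2-/- replicate 2, the library that stood apart by gene length, Ccdc54 had 239.4 CPM, and the remaining Rfx2-/- libraries had 136.5 to 152.8 CPM. In this library Ccdc34 had 101.6 CPM, against 48.0 to 56.1 CPM, and Ccdc18 had 102.6 CPM, against 54.5 to 59.4 CPM.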

How the results depend on the processing

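The counts of members called, their median, Rfx2 and the 41 named members were recomputed under 17 alternatives. The same was done, by a choice made after seeing the data, for the members called lower with a peak, without a peak and in the flagellar role. Motif counts, levels per kb, marker lists and the renamed and Lrrc genes were not recomputed. The count of members called lower was 6 (4.84%, against 1.74% of all genes) when tested against a 2-fold change with glmTreat. It was 21 (16.9%, against 7.31%) at an adjusted p of 0.05 without fold limit. When single libraries were left out, the count was 8 to 12 (6.45% to 9.68%, against 2.84% to 4.01% of all genes). It was 9 without wild type replicate 5 or Rfx2-/- replicate 3, 8 without Rfx2-/- replicate 4, and 9 with all libraries scaled by library totals alone. No member was called higher with the main settings of edgeR. The count was 2 with library totals alone (Ccdc18 and Ccdc93), 1 over every gene with at least 1 count (Ccdc18), 1 with the length trend removed (Ccdc93), 4 at an adjusted p of 0.05, and 0 to 1 when single libraries were left out. Of members with a peak, 4 were called lower with library totals alone, 3 with glmTreat, 11 at an adjusted p of 0.05 and 4 to 7 when single libraries were left out. Of members without a peak, these were 5, 3, 10 and 4 to 6, and of flagellar members 3, 1, 7 and 2 to 5. Under these settings the shares of all genes with a peak were 9.23%, 6.19%, 22.8% and 8.80% to 11.5%. Without a peak they were 2.69%, 1.45%, 6.31% and 2.42% to 3.53%. The median log2 fold change of the members was 0.13 with library totals alone, where that of all genes was 0.16, and -0.01 to 0.04 when single libraries were left out. Rfx2 kept a log2 fold change of -1.91 but did not pass 0.01 with glmTreat (adjusted p = 0.0282), and had -2.07 to -1.65 when single libraries were left out. Directions reversed only in members that were not called: Ccdc157 (0.017) and Ccdc158 (0.070) with library totals alone, and Ccdc158 (0.086), Ccdc89 (-0.027) and Ccdc107 (-0.13) with the length trend removed. When single libraries were left out, Ccdc107 had -0.24 (without Rfx2-/- replicate 2) to 0.30, and Ccdc158 had -0.085 to 0.017 (without Rfx2-/- replicate 3). Over the 41 named members and 17 alternatives, a call was gained 21 times and lost 26 times, and the cause was not tested. Ccdc110, Ccdc175, Ccdc24, Ccdc74a, Ccdc180 and Ccdc105 stayed called under all 17. No paired analysis was possible because the labels tie no wild type mouse to an Rfx2-/- mouse. Depth limits Ccdc24 and Ccdc190, whose Rfx2-/- libraries had as few as 2 counts.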
